A study of Canis lupus familiaris with 6 samples.

Results

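Claudins are the membrane proteins that polymerise into the strands of tight junctions. The rows named CLDN1, CLDN2, CLDN3, CLDN4, CLDN7, CLDN8, CLDN10, CLDN12, CLDN16 and CLDN23 were looked up by symbol in a table of 12851 dog genes. Of these 10 genes, 7 had a row, 1 row each, and CLDN8, CLDN10 and CLDN23 are not analysed here. RNA came from MDCK type II cells, an established dog kidney epithelial line, as 3 libraries from cells with E-cadherin knocked out (KO, E-cadherin loss of function) and 3 from control wild-type cells (WT). The method of the knockout, the number of KO clones and any separate culture of the libraries of a group remain not given in the sources used here. All p-values therefore measure only how far these libraries spread, a spread that may be technical. On density the labels disagree, with confluent dishes in one place and sub-confluent growth in another, so the density of each group was not known.

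A claudin spans the membrane several times. Its extracellular loops meet those of claudins on the next cell, and their charged residues set which ions and solutes pass between the cells, while the cytoplasmic tail of most members binds scaffold proteins such as ZO-1. Some members, CLDN2 first among them, form channels for small cations and water, and others seal the paracellular path. The mix of claudins differs along the kidney tubule and sets how leaky each segment is. E-cadherin, the adhesion receptor of the adherens junction, lies just below the tight junction in epithelial cells, and the comparison asks what differs in transcript levels once it is lost.

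The KO libraries held 18281549 to 18681821 normalized counts each and the WT libraries 19002399 to 19386796, so every KO total was below every WT total. Libraries of 1 group correlated at 0.987 to 0.991 across genes (Pearson r of log2 values), against 0.934 to 0.940 between groups. The targeted gene CDH1 averaged 1157 ± 68.8 normalized counts in KO and 39185 ± 573 in WT (SD, n = 3 each), so KO held 2.95% of the WT level. Epithelial markers were present in both groups. The 6 kidney tubule markers with a row, of 9 listed, summed to between 36683 and 38207 normalized counts in KO and between 34716 and 38589 in WT. Of 6 fibroblast markers, PDGFRA alone had a row, at 34.8 ± 5.84 in KO and 18.8 ± 1.53 in WT (adjusted p = 0.00809, limma), and its part in the results was not tested. The 6 endothelial and 5 immune markers listed are not analysed here.

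Claudin transcripts were lower in KO for most of the genes measured. Of the 7 claudins with a row, all of which passed the filter on low values, CLDN2, CLDN4, CLDN7, CLDN12 and CLDN16 fell, CLDN3 rose and CLDN1 did not pass (limma on log2 of the normalized count + 1, Benjamini-Hochberg adjusted p under 0.05 over 12349 tested genes). In the same test 48.1% of all genes were called, 24.5% lower and 23.6% higher. A mean of 200 normalized counts or more, which each of the 7 claudins reached, was found for 8977 genes, of which 50.5% were called and 28.1% called lower. The median log2 fold change of the 7 claudins was -0.52, against -0.01 over all tested genes. The KO and WT libraries did not overlap for 6 of the 7 claudins, KO being lower for 5 and higher for 1, and did not overlap for 56.4% of all tested genes, KO being lower for 28.6% and higher for 27.8%. In bulk RNA, fewer cells with a transcript and less transcript per cell cannot be told apart.

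**Figure D1:**
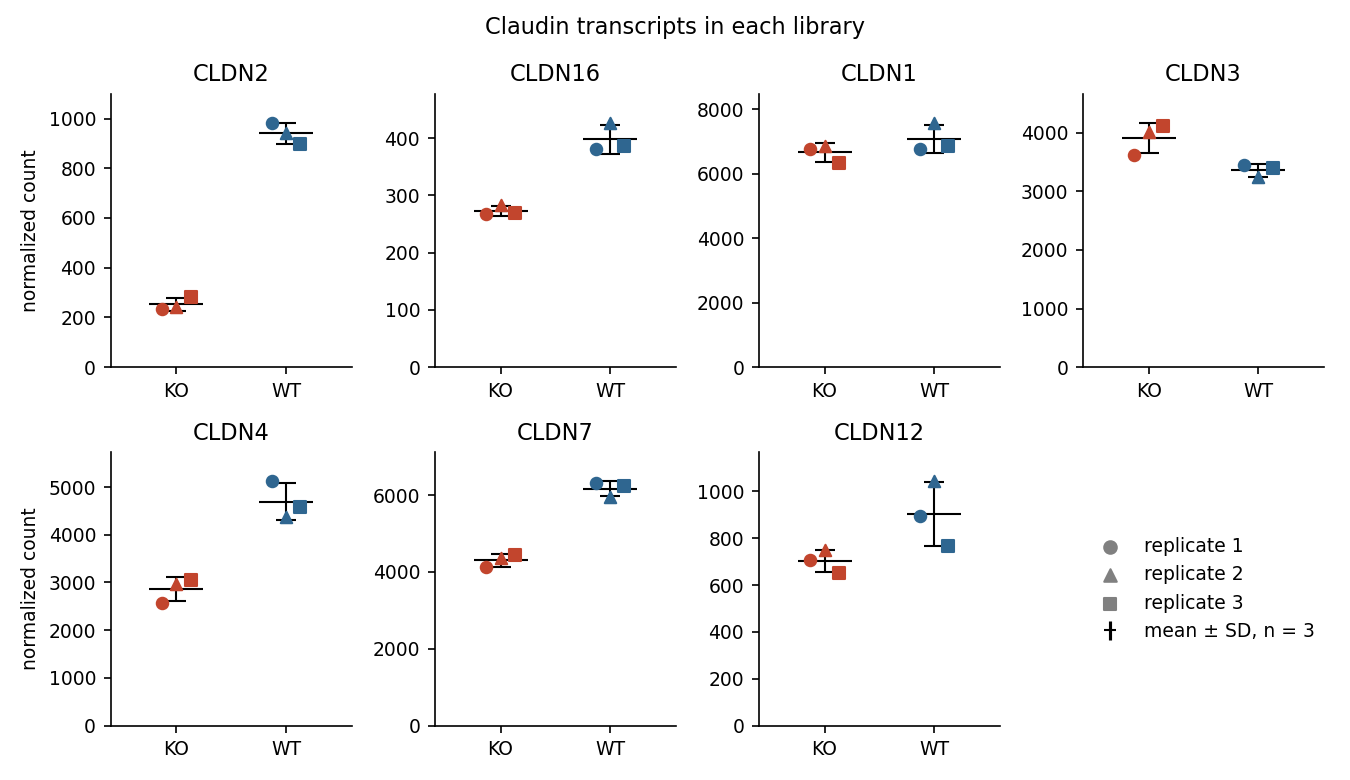
Normalized count (vertical axes, from 0) of each of the 7 claudins in the 3 KO and 3 WT libraries; symbols are replicates, and bars are the mean ± SD (n = 3). The groups are apart in 6 panels, with KO lower in 5 and higher for CLDN3, and they overlap for CLDN1.

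Among the channel-forming claudins, CLDN2 (ENSCAFG00845017181), which makes a pore for sodium, potassium and water and is known for the leaky junctions of type II MDCK cells, changed most. It had 235, 242 and 283 normalized counts in the KO libraries, against 982, 942 and 898 in the WT libraries. The highest KO library lay far below the lowest WT library, and KO held 26.9% of the WT mean. The fall was 3.71-fold on the fitted scale, a log2 fold change of -1.89 (SE 0.0828, 95% interval -2.07 to -1.71, adjusted p = 6.04e-10, limma). Only 1.55% of all tested genes had a lower log2 fold change, and 3.33% of tested genes were called lower by at least 2-fold, CLDN2 being the 1 claudin among them.

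CLDN16 (ENSCAFG00845024328), also called paracellin, is needed in the thick ascending limb for paracellular uptake of magnesium and calcium. It had 267, 283 and 269 normalized counts in KO and 381, 427 and 387 in WT, and the groups did not overlap. The means were 273 ± 8.83 in KO and 398 ± 24.7 in WT, and the log2 fold change was -0.54 (SE 0.0819, adjusted p = 0.000101, limma).

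The sealing claudins did not share a direction. CLDN4 (ENSCAFG00845003126), which limits sodium passage in tight epithelia and is a receptor for a Clostridium enterotoxin, had 2577, 2963 and 3057 normalized counts in KO and 5120, 4363 and 4588 in WT. Every KO library was below every WT library, and the mean was 2865 ± 254 in KO and 4690 ± 388 in WT, and the log2 fold change was -0.71 (SE 0.0723, adjusted p = 6.58e-06, limma). CLDN3 (ENSCAFG00845003145), a close relative of CLDN4 and a receptor for the same toxin, had 3622, 4005 and 4110 normalized counts in KO and 3446, 3237 and 3391 in WT. Here every KO library was above every WT library. The rise was small, 1.16-fold (log2 fold change 0.22, SE 0.0534, 95% interval 0.10 to 0.33, adjusted p = 0.00402, limma), and 49.0% of tested genes changed by more in either direction.

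CLDN7 (ENSCAFG00845020640) lies at the lateral membrane as well as in the tight junction, binds EPCAM, and acts as a seal or a channel depending on the cell. It had 4117, 4354 and 4433 normalized counts in KO and 6309, 5942 and 6238 in WT, with no overlap and little spread in either group (coefficient of variation 3.82% in KO and 3.16% in WT). KO held 69.8% of the WT mean, and the log2 fold change of -0.52 (SE 0.0452) had an adjusted p of 5.49e-07 in limma.

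CLDN1 (ENSCAFG00845024289), the seal whose loss in mice opens the skin barrier to water, was the 1 member that did not pass. It had 6775, 6864 and 6340 normalized counts in KO and 6780, 7580 and 6856 in WT, and KO replicate 2 lay above WT replicates 1 and 3. The log2 fold change was -0.09 (SE 0.0509, adjusted p = 0.187, limma), and its 95% interval of -0.20 to 0.02 holds changes down to 0.873 of the WT level.

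CLDN12 (ENSCAFG00845011713), which lacks the scaffold-binding tail end of most claudins and has been linked to calcium passage, had 707, 750 and 653 normalized counts in KO and 896, 1043 and 769 in WT. The highest KO value, 750, came close to the lowest WT value, 769, and the WT libraries spread more widely than for any other of the 7 (coefficient of variation 15.2%). Its log2 fold change was -0.35 (SE 0.0992, 95% interval -0.57 to -0.13, adjusted p = 0.0118, limma), and the call did not hold when limma was run without its trend and robust options (adjusted p = 0.0621). CLDN12 was also the 1 member whose span overlapped another gene in the reference annotation. That gene, CDK14, a cyclin-dependent kinase gene, averaged 797 ± 66.9 in KO and 1012 ± 48.1 in WT, and its log2 fold change was also -0.35 (adjusted p = 0.00112, limma). The overlap is of whole gene spans, and any overlap of exons in the annotation used for counting is not known. The authors' strand setting for counting was not given in the sources used here either. It is therefore uncertain whether some reads of CLDN12 and CDK14 were shared, and how many was not tested. CDK14 had 764, 875 and 754 normalized counts in KO, in the same order as CLDN12, and 961, 1017 and 1057 in WT, in another order. Of the 20 tested neighbours of CLDN12, CDK14 among them, 0 had a lower log2 fold change than CLDN12.

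**Figure D2:**
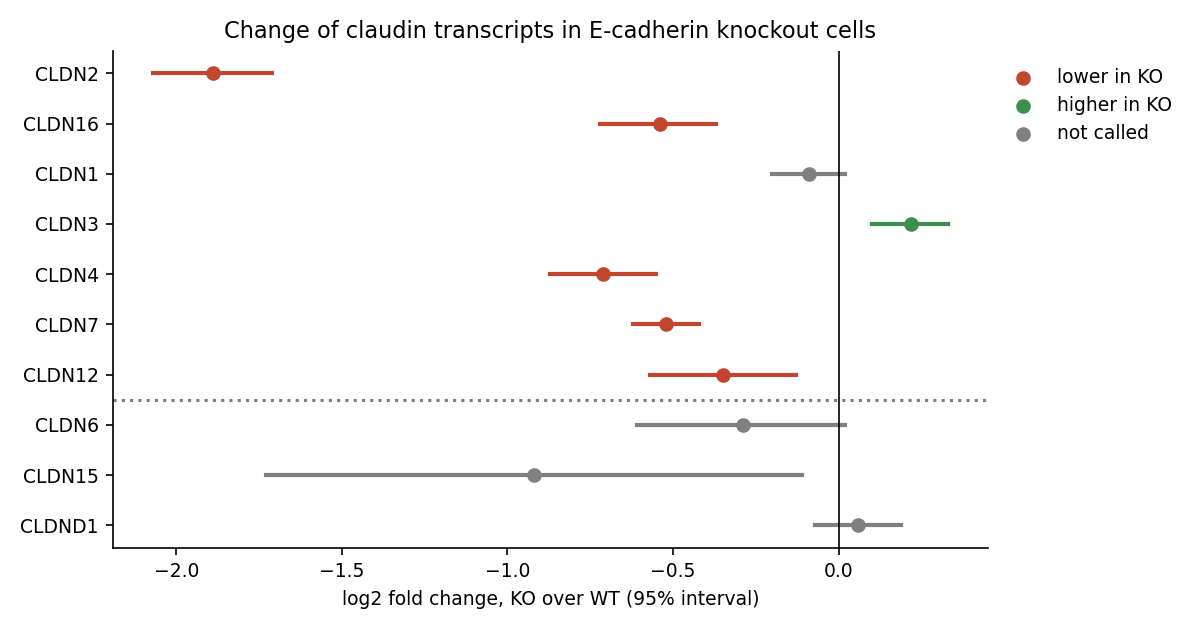
Log2 fold change of KO over WT (horizontal axis) with its 95% interval from limma, for the 7 claudins and, under the dotted line, the 3 other claudin-family rows of the table. CLDN2 stands at -1.89, 4 claudins lie between -0.71 and -0.35, CLDN3 is at 0.22, and the interval of CLDN1 holds 0.

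The authors' deposited table also calls CLDN2, CLDN4, CLDN7, CLDN12 and CLDN16 lower and CLDN3 higher at an adjusted p under 0.05, a threshold that 45.0% of all tested genes pass in it. It gives a log2 fold change of -1.89 (SE 0.103) for CLDN2, -0.71 (SE 0.0838) for CLDN4 and 0.22 (SE 0.0677) for CLDN3. For CLDN1 it gives -0.09 with an adjusted p of 0.212.

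The differences between claudins were read as ratios within a library, which are free of library scaling; the level of the ratio itself means nothing across genes of unknown transcript length. For 4 pairs the KO and WT ratios did not overlap. Each gave p = 0.1 in a two-sided exact permutation test over the libraries (0.1 after Benjamini-Hochberg adjustment over the 4 pairs). That is the smallest p that 3 against 3 allows, so the test cannot decide whether a pair differs. Single genes did not overlap for 56.4% of all tested genes, and the share of gene pairs without overlap was not counted. The log2 ratio of CLDN2 to CLDN4 averaged -3.50 ± 0.0987 in KO and -2.31 ± 0.0908 in WT (SD, n = 3 each), lower in KO by a difference of -1.18 (SE 0.0774). The fall of the pore-forming CLDN2 was thus larger in these libraries than that of CLDN4. The log2 ratio of CLDN3 to CLDN4 was 0.49, 0.43 and 0.43 in KO and -0.57, -0.43 and -0.44 in WT, a difference of 0.93 (SE 0.0502). That of CLDN1 to CLDN16 was 4.66, 4.59 and 4.55 in KO and 4.15, 4.15 and 4.14 in WT, a difference of 0.46 (SE 0.0312). CLDN7 and CLDN4, which both fell, differed least, by 0.19 (SE 0.0647).

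Both CLDN3 with CLDN4 and CLDN1 with CLDN16 are neighbours, with no other tested gene placed between them, in RefSeq's annotation of the assembly UU_Cfam_GSD_1.0. It served here for gene order and for the overlap of gene spans alone. CLDN4 fell while the nearest tested gene on either side of it rose. METTL27, a methyltransferase-like gene, averaged 127 ± 8.11 in KO and 40.7 ± 7.97 in WT (log2 fold change 1.64), and CLDN3 is on the other side. Beyond CLDN3, ABHD11, a mitochondrial hydrolase gene, rose by 0.48 on the log2 scale (adjusted p = 2.93e-05, limma). Leaving out CLDN3, of the 19 tested genes within 10 places of CLDN4, 6 were called higher and 4 lower with a median of -0.05, and 0 of the 19 had a lower log2 fold change than CLDN4.

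CLDN1 and CLDN16 lie on a sequence where most genes were lower in KO. Of the 110 other tested genes placed on it, 70 were called lower and 17 higher, with a median log2 fold change of -0.31. Of the 19 within 10 places of CLDN16, CLDN1 left out, 10 were lower and 5 higher (median -0.26), and 3 of the 19 had a lower value than CLDN16. The value of CLDN16, -0.54, was below that median and the value of CLDN1, -0.09, above it. Among tested genes, P3H2, a collagen prolyl hydroxylase gene, is next to CLDN1 and rose (2275 ± 55.1 in KO and 984 ± 88.1 in WT, log2 fold change 1.21). IL1RAP, the interleukin 1 co-receptor gene, is the tested gene next to CLDN16 and did not pass (log2 fold change 0.15, adjusted p = 0.0586, limma). The part of the shared shift in the fall of CLDN16 was not tested.

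The 20 tested neighbours of CLDN2 also leaned lower, with 10 called lower, 2 higher and a median of -0.21. Of the 20, 0 had a value as low as that of CLDN2. The lean was not limited to these neighbours. Of the 271 other tested genes placed on the same sequence, 100 were called lower and 48 higher (median -0.11). Beside CLDN2 among tested genes, MORC4 fell (log2 fold change -0.61, adjusted p = 0.000275, limma) and RIPPLY1 rose (0.52, adjusted p = 0.0358). Around CLDN7, 2 of 20 neighbours were lower and 7 higher (median -0.02), with ELP5, an Elongator subunit gene, at 0.21 and SLC2A4, which encodes the glucose transporter GLUT4, at -1.17. Around CLDN12, 3 of 20 were lower and 6 higher (median -0.07), and GTPBP10 on its free side was at -0.21 on the log2 scale (adjusted p = 0.150, limma).

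**Figure D3:**
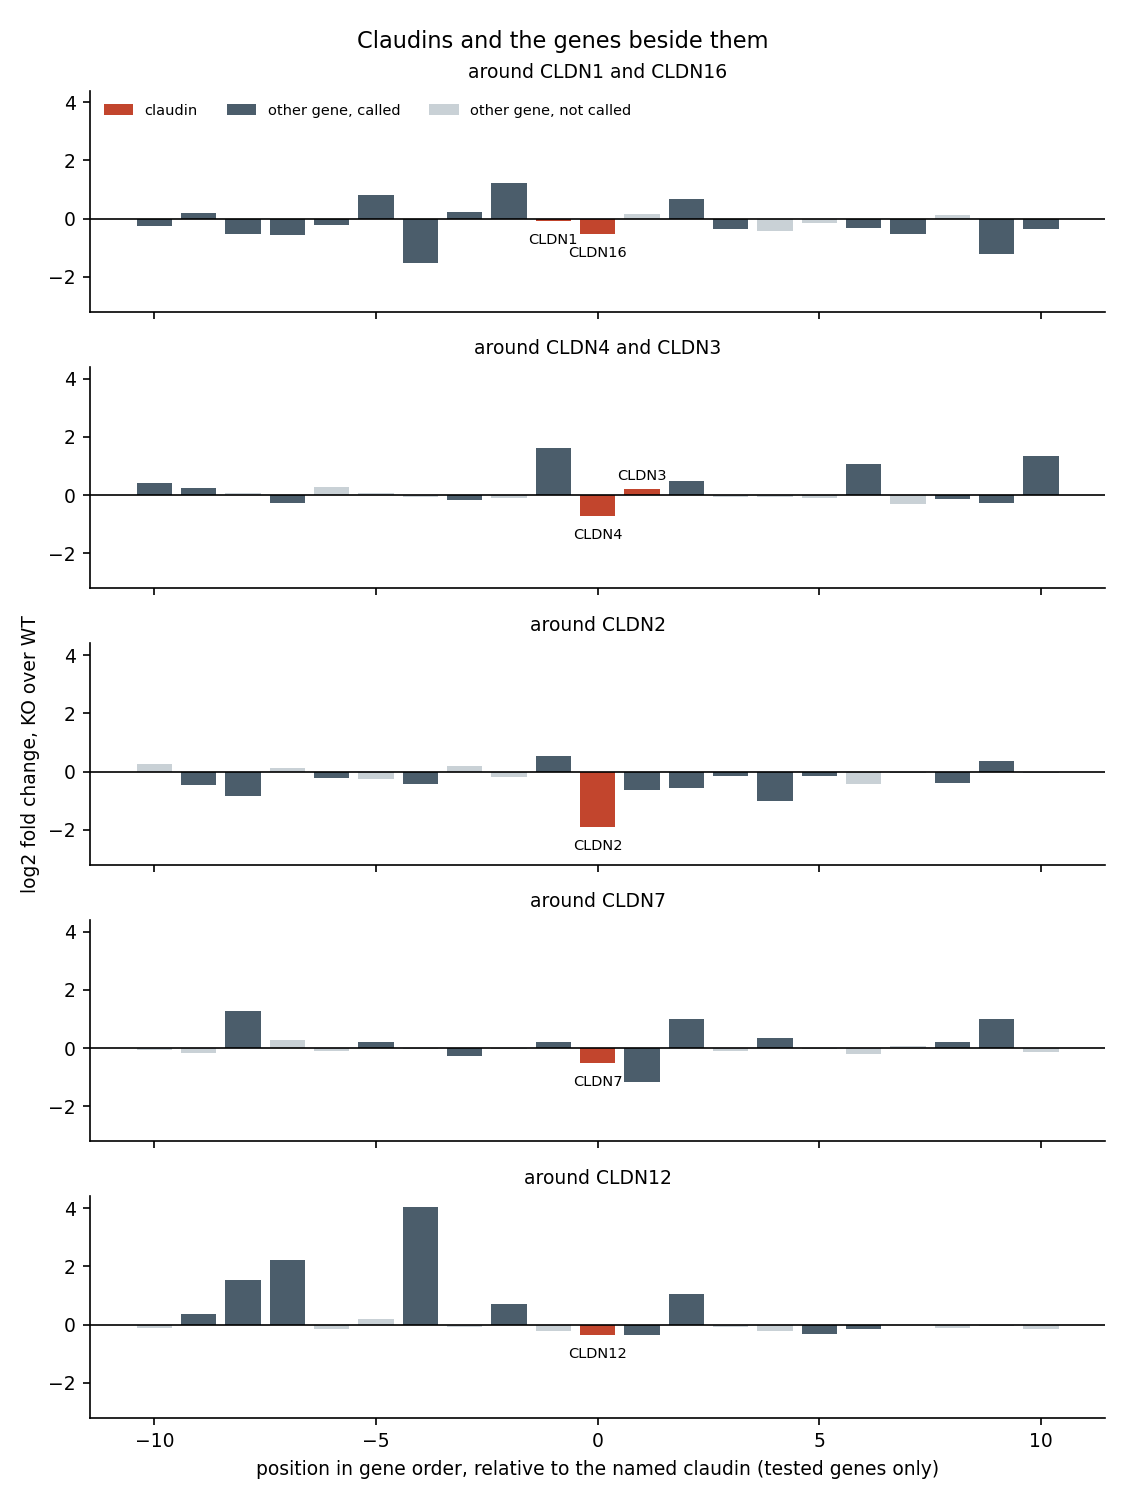
Log2 fold change of KO over WT (vertical axes) for the tested genes up to 10 places before and after a claudin in the reference gene order (horizontal axis); claudins are red, other called genes dark and genes not called pale. CLDN2, CLDN4 and CLDN12 lie below all of their neighbours shown, CLDN12 by a narrow margin over CDK14, and CLDN3 and CLDN4 point in opposite directions side by side.

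The claudins also differed in how they varied between libraries of the same group. CLDN2, CLDN3, CLDN4 and CLDN7 each had their highest KO value in KO replicate 3 and their highest WT value in WT replicate 1. CLDN1, CLDN12 and CLDN16 each had their highest value in KO replicate 2 and in WT replicate 2. Thus CLDN4 was 10.1% below its KO mean in KO replicate 1, where CLDN1 was 1.73% above, and CLDN4 was 6.97% below its WT mean in WT replicate 2, where CLDN1 was 7.18% above. CLDN1 and CLDN16 deviated almost alike in WT, by -4.13%, 7.18% and -3.05% for CLDN1 and by -4.23%, 7.11% and -2.87% for CLDN16. In KO they were less alike, at 1.73%, 3.07% and -4.8% for CLDN1 and -2.24%, 3.71% and -1.47% for CLDN16. This is a description of 3 libraries a group, grouped after the values were seen. How many of all tested genes had their highest values in the same libraries was not counted, and what the libraries share was not tested. Apart from CLDN12 in WT, the coefficient of variation of the 7 claudins was between 3.16% and 10.1%.

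**Figure D4:**
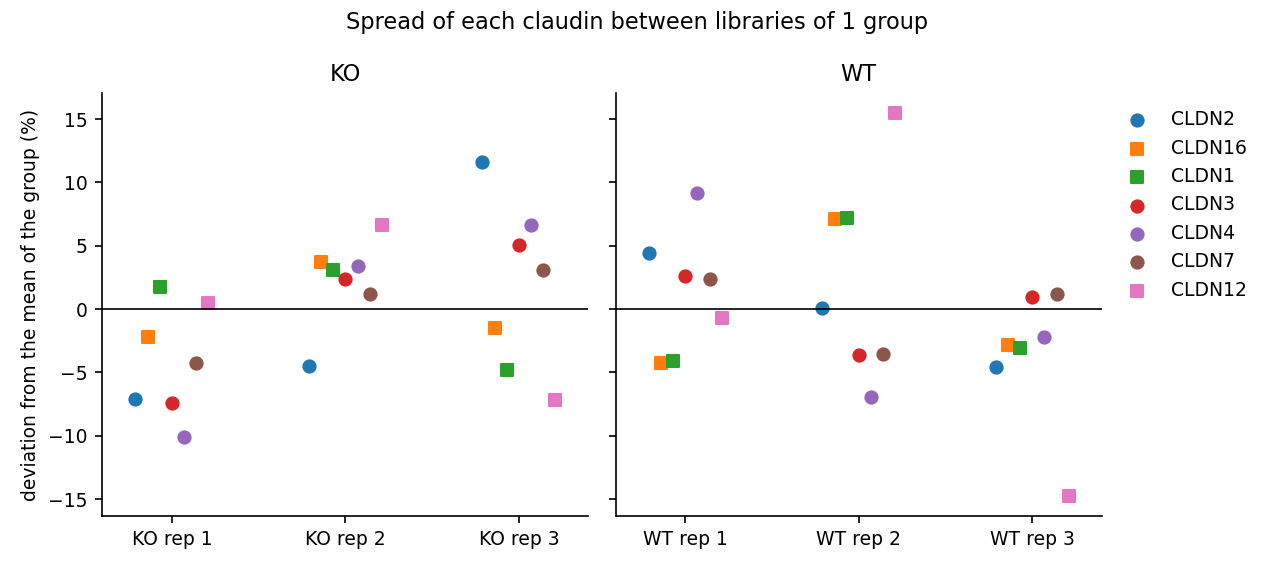
Deviation of each claudin from the mean of its own group (percent, vertical axis) in the 3 KO and the 3 WT libraries (horizontal axis); circles are CLDN2, CLDN3, CLDN4 and CLDN7, and squares CLDN1, CLDN12 and CLDN16. Each claudin drawn as a square has its own highest value in replicate 2 of both groups, and each drawn as a circle has it in KO replicate 3 and WT replicate 1.

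The table held 3 other rows of the family, none of which passed. CLDN6, a claudin of embryonic epithelia, had 72.5, 58.3 and 67.8 normalized counts in KO and 80.8, 80.6 and 81.7 in WT, without overlap but with a log2 fold change of -0.29 that did not pass (adjusted p = 0.115, limma). It passed when limma was run without its trend and robust options (adjusted p = 0.0357). The coefficient of variation of CLDN6 was 0.76% in WT and 10.9% in KO, and the part of the small WT spread in that pass was not tested. CLDN15, a cation pore of the intestine, was near the filter at 8.85 ± 3.19 in KO and 17.9 ± 7.12 in WT (log2 fold change -0.92, adjusted p = 0.0586), and it passed once KO replicate 3 (adjusted p = 0.0326) or WT replicate 2 (adjusted p = 0.0166) was left out. CLDND1, a more distant claudin-domain gene, averaged 2178 ± 88.5 in KO and 2091 ± 169 in WT (log2 fold change 0.06, 95% interval -0.07 to 0.19).

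The genes whose pattern over the 6 libraries was most like that of CLDN2, by the root mean square difference of centred log2 values among 8767 named genes averaging at least 100 normalized counts, were BATF3 (0.0787), LMO7 (0.0969), NCKAP5 (0.101), S100A14 (0.109) and FST (0.113). They were alike mainly in the size of the fall, with log2 fold changes from -2.05 to -1.76, beside -1.89 for CLDN2. Each of them had its highest WT value in WT replicate 3, where CLDN2 had its lowest. LMO7, an actin-binding adaptor of the adherens junction, averaged 849 ± 69.3 in KO and 3025 ± 88.9 in WT. FST, the activin antagonist follistatin, averaged 889 ± 52.6 in KO and 3672 ± 182 in WT. For CLDN7 they were UBA1 (0.0152), PTTG1 (0.0192), TUBB6 (0.0195), PSMD2 (0.0200) and KIAA1522 (0.0245). UBA1, the ubiquitin-activating enzyme, averaged 7927 ± 350 in KO and 11429 ± 483 in WT.

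Transcripts of other tight junction genes were more often lower than higher among those that passed. Of 25 tested scaffold, occludin-family, JAM, angulin and polarity genes, 13 were lower, 5 higher and 7 did not pass, where 24.5% of all tested genes were lower and 23.6% higher, with a median log2 fold change of -0.15 against -0.01 over all genes. TJP1, the ZO-1 scaffold that binds claudin tails, averaged 5410 ± 254 in KO and 6094 ± 60.4 in WT (log2 fold change -0.17, adjusted p = 0.00544, limma). OCLN, occludin, averaged 1515 ± 62.9 in KO and 1713 ± 61.5 in WT, and its call did not hold with WT replicate 1 left out (adjusted p = 0.0663), nor with KO replicate 3 left out (adjusted p = 0.0682). By the smallest adjusted p, CGNL1, paracingulin, fell 2.79-fold, IGSF5, the adhesion molecule JAM4, fell 1.91-fold and PATJ, a Crumbs-complex scaffold, fell 1.39-fold. JAM3, a junctional adhesion molecule, had 130, 148 and 137 normalized counts in KO and 2.39, 0 and 0 in WT and rose; with WT values this near 0 the size of the fold depends on the pseudocount (log2 fold change 6.53, 4.65 with a pseudocount of 5, 7.27 with 0.5, and 7.12 without WT replicate 1).

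Of 22 tested genes that bind claudins or govern their turnover, 6 were lower, 2 higher and 14 did not pass (median -0.02). The share lower was near the 24.5% of all tested genes, and the share higher was below their 23.6%. EPCAM, which binds CLDN7 and shields it from degradation, averaged 8120 ± 417 in KO and 8518 ± 398 in WT (log2 fold change -0.07, adjusted p = 0.263, limma). The matriptase gene ST14, a protease that cleaves EPCAM, rose 1.44-fold, and the tetraspanin CD9 fell 1.48-fold. MMP14, a membrane matrix metalloproteinase, had 1.96, 0.90 and 0 normalized counts in KO and 35.3, 59.2 and 37.8 in WT.

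Transcription and splicing regulators linked to claudin genes or epithelial identity were divided, with 9 of 24 higher, 9 lower and 6 not passing (median -0.03), as were all tested genes, with 23.6% higher and 24.5% lower. SNAI1, Snail, a repressor of claudin genes, had 241, 236 and 266 normalized counts in KO and 131, 124 and 125 in WT (1.94-fold higher, adjusted p = 3.36e-06, limma). ZEB1, a repressor of epithelial genes, had 101, 78.7 and 82.9 in KO and 17.6, 24.3 and 25.3 in WT. SNAI2, Slug, moved the other way, at 177 ± 10.7 in KO and 238 ± 4.57 in WT (log2 fold change -0.43, adjusted p = 0.00210). EHF, an epithelial ETS factor, had 576, 536 and 554 normalized counts in KO and 1091, 1114 and 1099 in WT. ESRP1, an epithelial splicing regulator, averaged 1466 ± 58.1 in KO and 2349 ± 17.4 in WT. Both fell.

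Of 30 genes that mark the nephron segments in which claudins differ, 10 had a row and 8 were tested, of which 5 fell and 1 rose, beside 24.5% lower and 23.6% higher among all tested genes. CUBN, the proximal tubule receptor cubilin, fell 8.86-fold, to 64.9 ± 2.25 in KO against 583 ± 9.84 in WT. GATA3, a regulator of the collecting duct, averaged 142 ± 24.2 in KO and 470 ± 52.9 in WT. SCNN1A, a sodium channel subunit of the same segment, averaged 97.2 ± 9.97 in KO and 247 ± 19.6 in WT. AVPR2, its vasopressin receptor, rose, with 43.2, 45.0 and 49.8 normalized counts in KO and 11.4, 5.31 and 10.3 in WT.

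**Figure D5:**
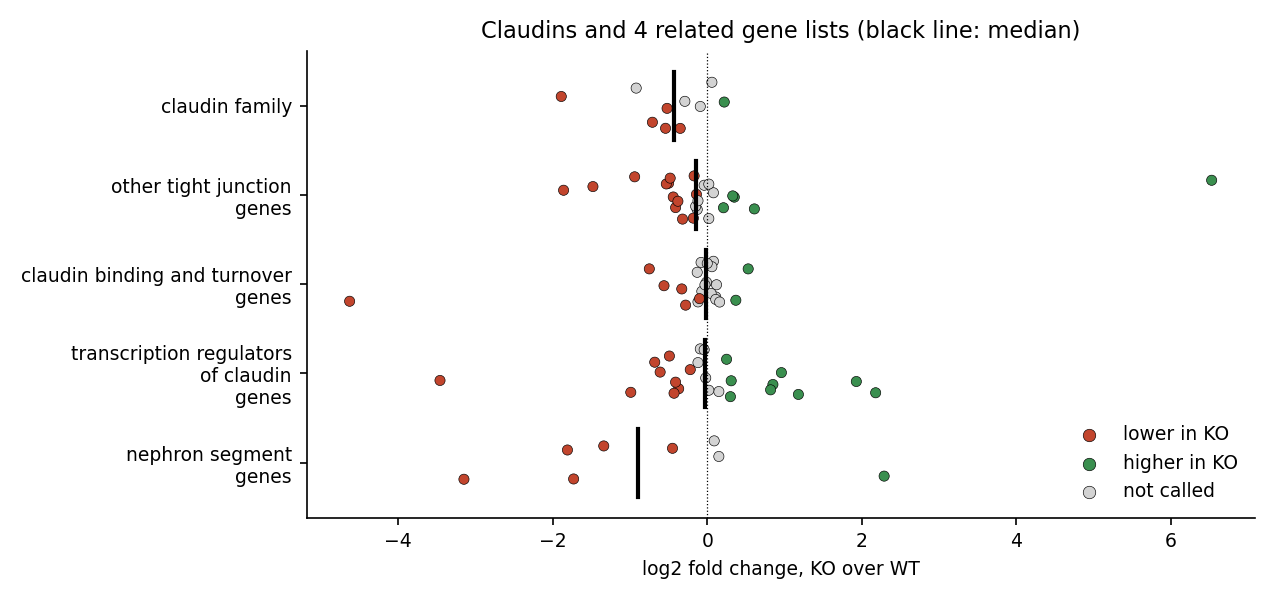
Log2 fold change of KO over WT (horizontal axis) for the tested genes of the claudin family and of 4 related lists; each point is a gene, coloured by its limma call, and the black line is the list's median. The medians are -0.43 for the 10 claudin-family rows, -0.15 for other tight junction genes, -0.02 for binding and turnover genes, -0.03 for transcription regulators and -0.90 for nephron segment genes.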

How the data were processed

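The submitters' processing notes name STAR 2.5.2b, FastQC, DESeq2 1.14.1, Picard 2.8.1 and featureCounts. The genome build was not given in the sources used here. Deposited by the authors were normalized counts per gene and library, a signal that is not whole: at best 72.2 to 81.0% of a library's values below 12 were within 0.1 of a multiple of 1 step, and a count test could not be used. If the step is 1 read, libraries held about 16884423 to 22438421 reads. Further columns, per the file headers, are the authors' log2 fold change with its error, a score (fold change over error), p-values and a mean.

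Here values were transformed to log2(value + 1), genes averaging at least 10 were kept, and KO was tested against WT with limma 3.58.1 in R 4.3.3 (trend and robust options, statmod 1.5.0, two-sided, Benjamini-Hochberg, threshold 0.05). Fold changes on this scale understate low genes. The limma step was also run on simulated whole counts with 200 changed genes. The deposited values are not whole and 48.1% of tested genes were called, so that run does not show how the step performs here. Ratios, neighbours and likeness were computed in Python 3.11.15 with numpy 2.4.6, pandas 2.3.3 and scipy 1.17.1. The gene order placed 9788 of 10003 tested symbols.

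Members and lists were chosen with earlier results of these data known. Named genes were CDH1, all claudin rows, TJP1, OCLN, EPCAM, SNAI1, SNAI2, ZEB1, up to 4 called genes per list with the smallest adjusted p, the 5 genes most like CLDN2 and CLDN7, and the nearest tested gene on either side of each claudin. PDGFRA was named as a marker. A gene that the rule takes is not reported here. The comparison with genes of a mean of at least 200, the within-group pattern and the overlap of spans were added after the data were seen. No pair of libraries of a group agreed within sampling noise (chi-square per gene of 3.08 to 11.5). Reads shared between similar claudins could not be assessed. Alternatives were rescaling, limma without trend and robust options, other pseudocounts and filters, a minimum fold, a replicate block, leaving out each library and the authors' calls.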

Additional observations from a re-analysis of the deposited data

Results flagged for a closer look

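CLDN6 drew attention through the authors' deposited mean of normalized counts, a column outside the comparison. That mean is 255 for CLDN6, while its 3 KO values run from 58.3 to 72.5 and its 3 WT values from 80.6 to 81.7, so the mean lies above every library analysed. Dividing each gene's 6-library mean by its deposited mean gave at most 1.5, as would follow if 9 libraries entered the deposited mean. Those other libraries are not analysed here, and their source is not known.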

How the results depend on the processing

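The log2 fold change of each of the 7 claudins kept its sign under all 16 alternatives run: it ranged from -1.97 to -1.84 for CLDN2, -0.76 to -0.64 for CLDN4, -0.57 to -0.49 for CLDN16, -0.55 to -0.49 for CLDN7, -0.46 to -0.24 for CLDN12, -0.12 to -0.03 for CLDN1 and 0.18 to 0.27 for CLDN3. Leaving out 1 library ended none of the 6 claudin calls; the highest adjusted p was 0.0407 for CLDN12 and 0.0254 for CLDN3. A minimum fold of 1.5 (limma treat) moved counts by its own construction: 688 genes were called higher and 446 lower, 0 claudins higher and 1 (CLDN2) lower, 1 and 3 other tight junction genes, 0 and 1 binding and turnover genes, and 3 and 2 transcription regulators. CLDN4 then had an adjusted p of 0.449. With a minimum mean of 50, 0 nephron segment genes were called higher, since AVPR2 was no longer tested. Whether the replicate numbers pair the libraries is not known. Deviations from the group means correlated at -0.139, -0.208 and 0.0445 for numbers 1, 2 and 3, and no library correlated best with its own number. With the replicate block, 3000 genes were called higher and 3118 lower, and 1 and 5 claudins. The block also brought CLDN15 past the threshold (adjusted p = 0.0349). Over all genes the median log2 fold change was -0.01 as fitted, -0.01 after median-of-ratios rescaling and 0.00 after TMM rescaling. Depth limits the low rows: CLDN15, at about the filter of 10, had a coefficient of variation of 36.1% in KO and 39.7% in WT.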

Other observations

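The deposited mean also sets the claudins apart from each other. The mean of the 6 libraries over the deposited mean was 1.45 for CLDN2, 1.42 for CLDN16 and 1.36 for CLDN3, near the limit of 1.5 that a gene with no count in the further libraries would reach. It was 1.19 for CLDN4, 1.16 for CLDN1, 1.15 for CLDN7 and 1.08 for CLDN12, and 1.00 for CLDND1. These values are given with no explanation, and the further libraries are not analysed here.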
